A study of Mus musculus with 8 samples.

Results

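The nuclear-encoded genes of oxidative phosphorylation were examined in single islet cells of mice with or without 50% partial pancreatectomy (PPTx). The members were every gene whose symbol began with Ndufa, Ndufb, Ndufc, Ndufs, Ndufv, Uqcr, Atp5, Cox4i, Cox5, Cox6, Cox7 or Cox8, together with Sdha, Sdhb, Sdhc, Sdhd and Cyc1, leaving out the Ndufaf assembly factors and names holding -ps. This rule used no measured value and found 86 of the 24421 genes in the count tables. By name, 38 belonged to complex I, 4 to complex II, 9 to complex III, 18 to complex IV and 17 to complex V. The names do not follow the proteins in every case. Ndufa4 is counted here with complex I although its protein sits in complex IV, and Atp5s and Atp5sl do not encode subunits of the ATP synthase. Cox7a2l encodes a factor described as joining complexes III and IV, a function not examined in these mice.

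Complexes I to IV form the respiratory chain of the inner mitochondrial membrane. They pass electrons from NADH and succinate to oxygen. Complexes I, III and IV pump protons, and complex V, the ATP synthase, makes ATP from the proton gradient. In β-cells, ATP made in this way closes potassium channels of the plasma membrane and so links glucose to insulin secretion. Most subunits are encoded in the nucleus, and the few encoded in mitochondrial DNA were not analysed here.

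All mice were male C57BL/6J, 8 weeks old. The 4 control samples came from mice that had no operation and the 4 PPTx samples from mice that had PPTx 2 days before their islets were taken. Each sample was pooled from islets of 1 to 3 mice, so a p-value for PPTx against control measures the spread between pooled samples. Where cells of the same sample were compared, it measures how their difference varied between samples. The tables held 1240 cells, of which 1232 passed the study's limits on genes and unique molecular identifiers (UMIs), 520 from control and 712 from PPTx mice, and the totals per sample lay between 236645 and 1580152 UMIs. A cell was named by the hormone transcript with most of its UMIs, which had to hold at least 1% of them and at least 2 times the next hormone. This gave 950 beta-like cells (Ins1 and Ins2; 375 control, 575 PPTx), 130 PP-like cells (Ppy; 32 and 98), 114 alpha-like cells (Gcg; 95 and 19), 13 delta-like cells, 1 epsilon-like cell and 24 mixed cells. Transcripts that did not define the types followed the names: 8 of 8 beta-cell genes were highest in beta-like cells, 5 of 7 alpha-cell genes in alpha-like cells and 4 of 6 PP-cell genes in PP-like cells. No library had to be set aside, and 1 barcode occurred in more than 1 sample. Markers of other cells were also searched. In all cells together Pecam1 and Cdh5 (endothelial) and Cftr (ductal) had 0 UMIs and Ptprc (immune) and Cpa1 (acinar) 8 each, while Cd74 (immune) had 85, Ctrb1 (acinar) 70, Col3a1 (stellate) 188 and Spp1 (ductal) 396.

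Levels are given as counts per 1000000 (CPM), the UMIs of a gene scaled to 1000000 UMIs of a sample's cells of one type, with the 6 hormone transcripts left out of the total, because insulin transcripts alone took a median of 59.5% of the UMIs of a beta-like cell, 0.758% of an alpha-like cell and 0.882% of a PP-like cell. Each UMI marks 1 captured 3′ end, so a level does not depend on transcript length. Sums of fewer than 5 cells were not used, apart from those of replicating cells described last, which left beta-like sums in 8 samples, PP-like sums in 7 (not control 1) and alpha-like sums in 6 (not PPTx 1 and PPTx 4). Delta-like cells reached 5 in no sample and were not compared. The insulin transcripts in alpha-like cells stood at 1.14% of their level in beta-like cells and in PP-like cells at 1.35%.

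Of the 86 members, 82 were detected and 74 had at least 100 UMIs. Together they held 78149 UMIs, 38.2% of them from complex I, 3.99% from complex II, 10.6% from complex III, 21.0% from complex IV and 26.2% from complex V. The member with most UMIs was Sdha in complex II (879 UMIs), Uqcrq in complex III (1810), Cox4i1 in complex IV (2518) and Atp5e in complex V (3279). Sdha encodes the flavoprotein that oxidises succinate, Uqcrq a small subunit of the bc complex, Cox4i1 the common form of a regulatory subunit of cytochrome oxidase, and Atp5e a small subunit of the central stalk of the ATP synthase. Ndufs5, Cox7b2, Cox8b and Cox8c were listed at 0 UMIs in every cell. How the counting treated reads shared with near-identical copies is not stated, so the 0 of Ndufs5, a subunit of complex I found in most tissues, does not show that it was not expressed. Cox4i2, Ndufa4l2, Cox6b2 and Cox7a1, alternative forms of subunits that have a common form, held between 1 and 10 UMIs each. Atp5l (18), Atp5sl (42), Atp5g2 (79) and Atp5s (98) were the other members under 100 UMIs.

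In beta-like cells, the mean levels of the 73 members with at least 100 UMIs there spanned 18.1-fold, from 52.4 CPM for Ndufb4 to 951 for Atp5e, with a median of 310. Across the 8 samples the coefficient of variation of a member had a median of 17.5%, from 5.75% for Ndufa6 to 52.4% for Ndufb4. Core subunits of complex I did not share a level. Ndufv2, which carries an iron-sulphur cluster, averaged 264 ± 55.7 CPM (SD, n = 8), whereas Ndufs7 averaged 190 ± 41.1, Ndufs8 146 ± 32.3, Ndufv1, the subunit that binds NADH, 116 ± 41.4, Ndufs1 80.2 ± 17.1 and Ndufs3 69.9 ± 35.3. In complex II the levels were closer, with Sdha at 271 ± 28.6, Sdhb, the iron-sulphur subunit, at 181 ± 43.3, and the membrane anchors Sdhc and Sdhd at 265 ± 38.5 and 229 ± 26.4.

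The sequence before the start of transcription is shown for members named below whose 250 upstream bases held the letters of the nuclear respiratory factor 1 site or of the ETS site bound by GABP, factors known for binding at respiratory chain genes. The sequences are those of RefSeq on GRCm38.p6 (mm10), the build of the count tables, printed in the direction of the gene up to the base before its start, with the matching letters in capitals. Letters were searched on both strands as GCGCATGC (nuclear respiratory factor 1), CCGGAAGT (ETS) and GGGCGG (GC box). Cox6a1, which encodes the common form of a subunit of cytochrome oxidase, lies at chr5:115345652-115348958, and the bases before it at chr5:115348959-115349208 on the minus strand held 4 matches, 2 of them to the GC box.
Cox6a1: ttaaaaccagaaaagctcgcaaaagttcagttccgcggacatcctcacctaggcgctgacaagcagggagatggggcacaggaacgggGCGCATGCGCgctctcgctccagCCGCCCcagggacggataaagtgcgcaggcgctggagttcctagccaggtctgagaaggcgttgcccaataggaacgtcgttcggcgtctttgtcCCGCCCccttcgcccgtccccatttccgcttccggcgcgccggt
Ndufa6, an accessory subunit of complex I, lies at chr15:82350139-82354291, and the bases before it at chr15:82354292-82354541 on the minus strand held 1 match.
Ndufa6: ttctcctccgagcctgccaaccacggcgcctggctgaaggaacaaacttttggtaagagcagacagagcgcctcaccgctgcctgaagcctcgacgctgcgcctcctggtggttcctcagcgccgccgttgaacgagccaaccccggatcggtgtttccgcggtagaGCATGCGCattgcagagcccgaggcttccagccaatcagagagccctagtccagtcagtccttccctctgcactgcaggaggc
Uqcr11, a small subunit of complex III, has its upstream bases at chr10:80406822-80407071 on the minus strand, with 1 match to the ETS letters.
Uqcr11: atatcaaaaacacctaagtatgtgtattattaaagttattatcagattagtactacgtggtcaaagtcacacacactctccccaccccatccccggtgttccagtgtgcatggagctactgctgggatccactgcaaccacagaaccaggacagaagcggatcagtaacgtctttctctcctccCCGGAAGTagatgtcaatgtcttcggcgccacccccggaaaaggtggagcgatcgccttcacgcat
All 86 members were matched to RefSeq, and 70 had an entry in its table of windows from 250 bases before to 50 after a start, with 76 windows. The nuclear respiratory factor 1 letters stood in 13.2% of these windows and in 2.71% of all 32851 windows of the genome. The ETS letters stood in 6.58% against 3.89%, AAGATGGC (YY1) in 15.8% against 2.75%, AAGGTCA (oestrogen-related receptor) in 10.5% against 4.72%, and the GC box in 39.5% against 35.7%. In the capital run of Cox6a1 the first motif matches on both strands, overlapping. A match is a description of letters, and binding was not measured.

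In CPM of non-hormone UMIs, the members as a whole were highest in beta-like cells and lowest in PP-like cells, while in CPM of all UMIs they were highest in alpha-like cells. In control samples 1 to 4 their sum in beta-like cells was 23765, 22293, 24224 and 22760 CPM, and in PPTx samples 1 to 4 it was 24905, 25399, 25180 and 23993. In PP-like cells it was 15217, 17201 and 15314 in control samples 2 to 4 and 15888, 18241, 17958 and 15923 in the PPTx samples. Every PP-like sum was below every beta-like sum. The mean was 24065 ± 1114 CPM in beta-like cells (SD, n = 8), 21964 ± 2044 in alpha-like cells (n = 6) and 16535 ± 1252 in PP-like cells (n = 7).

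**Figure D1:**
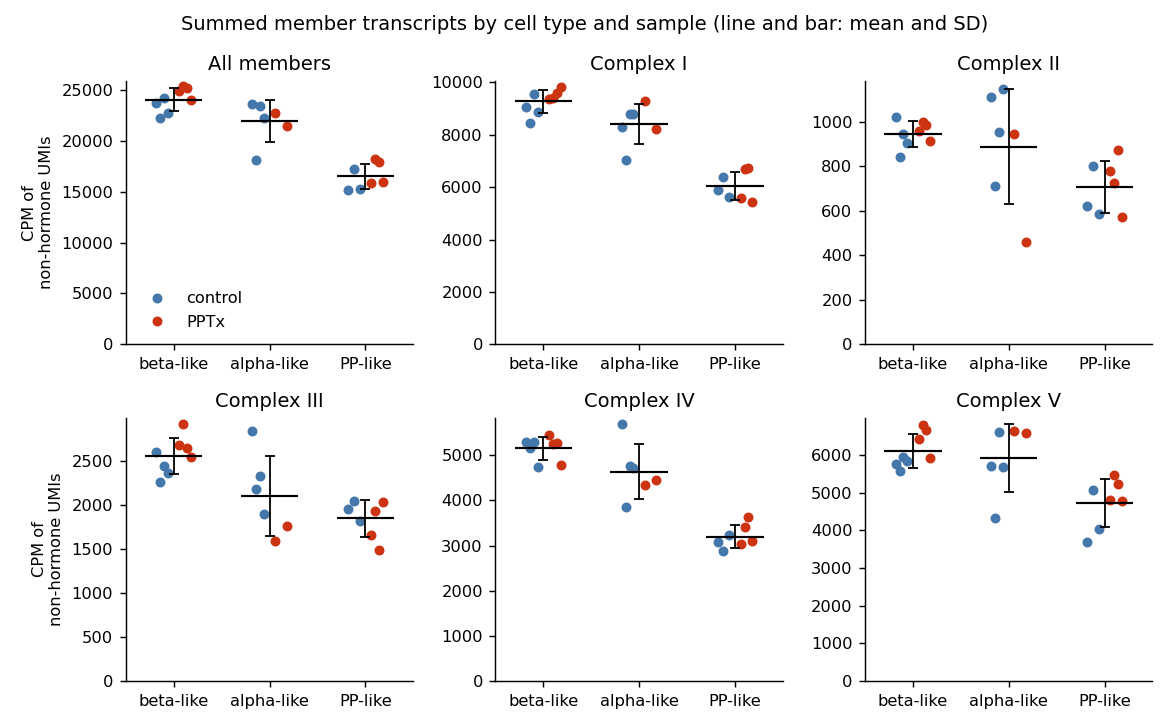
Summed levels of all members and of the members of complexes I to V, in CPM of non-hormone UMIs on linear axes from 0, for beta-like, alpha-like and PP-like cells; each point is 1 sample, blue for control and red for PPTx, and the line and bar give the mean and SD over all samples of a type. The 7 PP-like sums of all members lie between 15217 and 18241, below the 8 beta-like sums between 22293 and 25399, and alpha-like sums lie between 18117 and 23636.

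Within a sample, the member sum in PP-like cells differed from that in beta-like cells by a log2 of -0.55 (SD 0.063, lower in 7 of 7 samples). All complexes were lower in PP-like cells in 7 of 7 samples, by -0.62 for complex I, -0.42 for II, -0.47 for III, -0.69 for IV and -0.39 for V, on this scale. Sums in CPM depend on what else a cell makes. Pyy, a peptide gene of PP-cells, alone took 22.6% of the non-hormone UMIs of PP-like cells, Iapp 11.8% of those of beta-like cells and Ttr 7.10% of those of alpha-like cells. With these genes left out too, a setting chosen after seeing the data, the PP-like difference was -0.32, and in CPM of all UMIs it was -0.26, in both cases lower in 7 of 7 samples. Complexes I and IV were lower in 7 of 7 samples on these scales too, but in CPM of all UMIs complex II (-0.13) was higher in 2 samples, III (-0.18) in 3 and V (-0.11) in 2, and with the peptides left out complexes II (-0.19) and III (-0.24) were higher in 1 sample each and V was at -0.16. For alpha-like cells the direction turned with the scale: the sum was lower by -0.13 (SD 0.12, 6 of 6 samples) in CPM of non-hormone UMIs and by -0.14 without the peptides, but higher by 0.27 in 5 of 6 samples in CPM of all UMIs. Between alpha-like and PP-like cells, in the 5 samples with both, the sum was higher in alpha-like cells by 0.36 in 5 of 5 samples, by 0.14 in 4 of 5 without the peptides and by 0.52 in 5 of 5 in CPM of all UMIs. Complex I held 38.6% of the member UMIs in beta-like (37.1 to 41.0% over samples), 38.3% in alpha-like (35.1 to 40.7%) and 36.6% in PP-like cells (34.1 to 38.6%), and complex IV 21.4 ± 1.02% (SD), 21.1 ± 1.67% and 19.4 ± 1.39%. Complex V went the other way, with 25.4 ± 0.918%, 26.9 ± 2.83% and 28.5 ± 2.30%. These sums carry no test.

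Single members were compared between types with edgeR's quasi-likelihood test on the sums per sample, with the sample as a block. The comparisons of alpha-like and PP-like with beta-like cells share the beta-like sums, and their values are given side by side. A gene was called at a Benjamini-Hochberg adjusted p under 0.05 over all genes tested. Of the members, 70 passed the filter on low counts. A member high in beta-like cells could pass through those cells alone, so the counts describe the members tested and not all 86.

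In PP-like against beta-like cells, 20 of the 70 members were lower (28.6%) and 1 was higher (1.43%). Of all 2700 genes tested, 18.2% were called lower, 16.3% higher and 34.6% in either direction. The median of the members was -0.33 against 0.01 for all genes, and 62 of the 70 had a value below 0. In alpha-like against beta-like cells, 12 of 70 members were lower (17.1%) and 2 higher (2.86%), while 19% of all genes were called lower, 15% higher and 34% in either direction, so the share of lower members was near that of all genes. Their median was -0.09 against -0.0024. With library sizes alone as the scale, the median of all genes in the PP-like comparison moved to -0.16 with 314 genes higher and 701 lower against 441 and 492 with TMM, the members' median moved to -0.51, and 35 members were called lower and 0 higher.

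**Figure D2:**
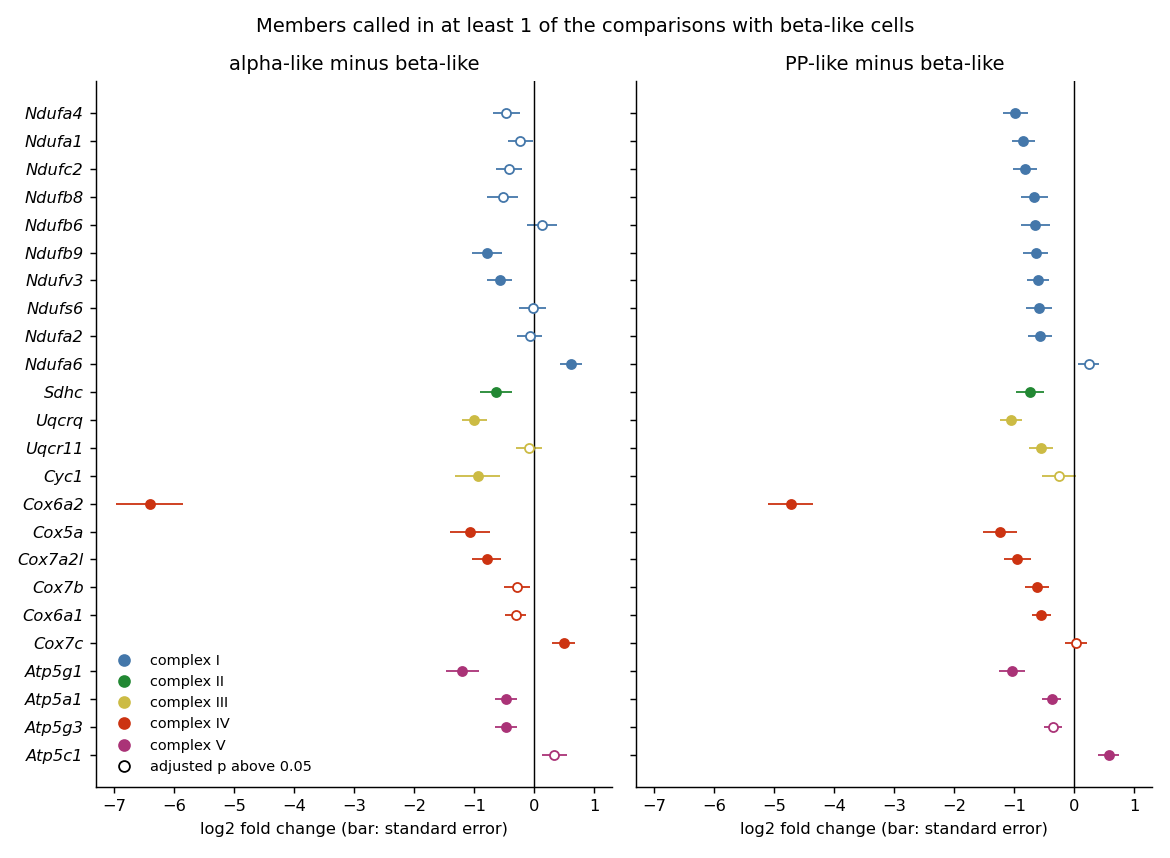
Log2 fold changes with their standard errors from edgeR for members called in at least 1 of the comparisons of alpha-like (left) and PP-like (right) with beta-like cells, coloured by complex, with open symbols where the adjusted p was above 0.05. Cox6a2 lies at -6.41 and -4.73, far to the left of the next members shown, Atp5g1 at -1.20 in the left panel and Cox5a at -1.24 in the right.

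Cox6a2 set the beta-like cells apart more than any other member tested. It encodes the form of cytochrome oxidase subunit VIa known from heart and skeletal muscle, and lies at chr7:128205435-128206366. In beta-like cells of control samples 1 to 4 its level was 615, 451, 405 and 325 CPM and in PPTx samples 1 to 4 it was 498, 442, 413 and 363. In alpha-like cells it was 0 in 5 of 6 samples and 8.00 in control 3, a single UMI, and in PP-like cells it lay between 0 and 36.5, from 5 UMIs in 7 samples. All 8 beta-like sums were high and every alpha-like and PP-like sum lay far below them. The log2 fold change in edgeR was -6.41 (SE 0.56, adjusted p = 9.33e-29) in alpha-like and -4.73 (SE 0.38, adjusted p = 3.06e-34) in PP-like cells, values that depend on the prior count. Pooled over samples, its level in alpha-like cells was 0.908% of that in beta-like cells (95% exact interval 0.023 to 5.07%) and in PP-like cells 3.21% (1.04 to 7.52%). The same ratio was 3.73% and 3.76% for G6pc2, 1.49% and 1.05% for Ucn3, 5.07% and 2.56% for Slc2a2 and 1.67% and 7.95% for Iapp, all known genes of β-cells. Of the other genes of the β-cell list, Nkx6-1 stood at 6.12% and 25.1% and Slc30a8, which alpha-cells also express, at 94.2% and 12.2%, while Mafa had 2 UMIs and Pdx1 43 in all cells. Intervals of this kind cover counting error only.

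The partner Cox6a1 had no such pattern. In beta-like cells it averaged 764 ± 104 CPM (n = 8), in alpha-like cells 652 ± 271 (n = 6) and in PP-like cells 445 ± 114 (n = 7), with a log2 fold change of -0.55 (SE 0.16, adjusted p = 0.00217) in PP-like cells and -0.31 (adjusted p = 0.156) in alpha-like cells. Cox6a2 made up 36.3 ± 3.23% of the UMIs of both genes in beta-like cells, between 32.3 and 41.8% in the 8 samples. It made up 0.222 ± 0.544% in alpha-like and 2.90 ± 3.59% in PP-like cells.

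**Figure D3:**
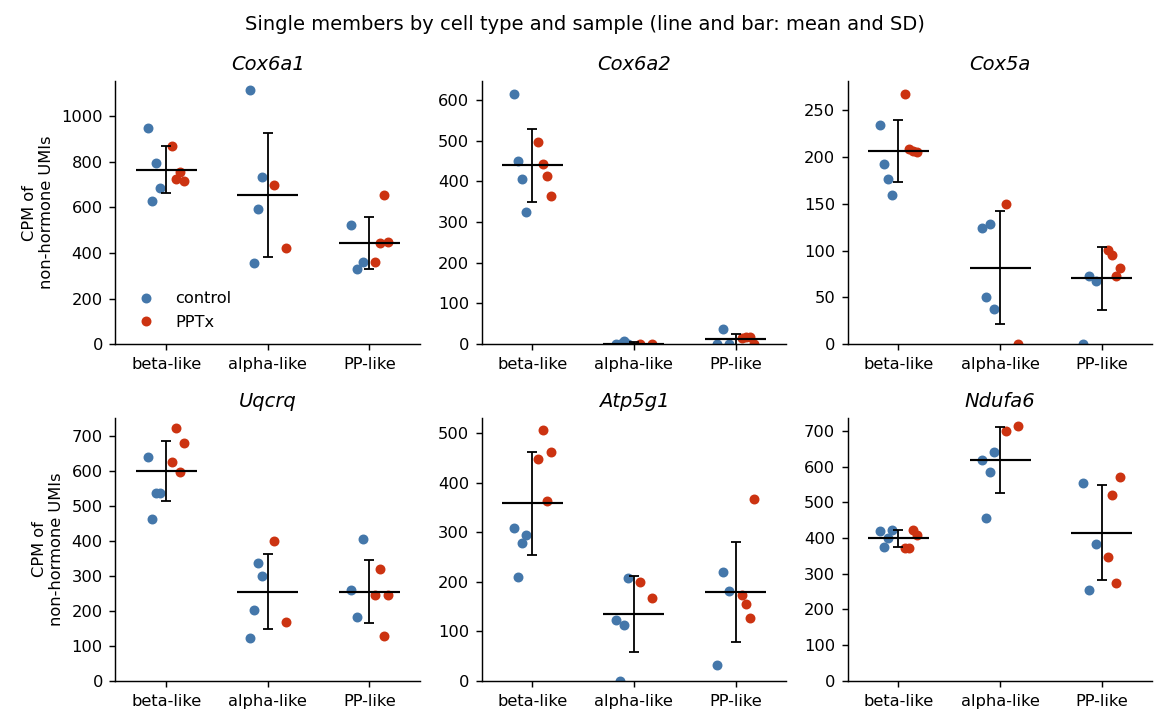
Levels of 6 members in CPM of non-hormone UMIs, on linear axes from 0, in beta-like, alpha-like and PP-like cells; points are samples (blue control, red PPTx) and the line and bar are the mean and SD of a type. Cox6a2 is between 325 and 615 in beta-like cells and at most 36.5 elsewhere, whereas Ndufa6 is higher in all 6 alpha-like samples than in any beta-like sample.

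The other pairs of alternative subunits were held by 1 form in each type. Cox4i1, Cox6b1, Cox7a2, Cox7b, Cox8a and Ndufa4 each had at least 98.8% of the UMIs of their families on average in all types. Cox5a and Cox5b, which encode different subunits of cytochrome oxidase despite their names, went apart. Cox5a, at chr9:57517328-57532427, was at 160 to 268 CPM in the 8 beta-like samples, 0 to 150 in the 6 alpha-like samples and 0 to 101 in the 7 PP-like samples. Its levels rested on 23 UMIs in alpha-like and 29 in PP-like cells. No alpha-like or PP-like sample reached the lowest beta-like one, and edgeR called it lower by -1.07 (SE 0.33, adjusted p = 0.00533) and -1.24 (SE 0.28, adjusted p = 9.53e-05). Cox5b averaged 292 ± 68.1 in beta-like cells and was not called, at 0.14 (adjusted p = 0.672) in alpha-like and -0.24 (adjusted p = 0.376) in PP-like cells.

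The remaining members of complex IV that were called in PP-like cells were Cox7a2l (-0.95, SE 0.22, adjusted p = 0.000163) and Cox7b (-0.62, SE 0.20, adjusted p = 0.00849), so that 5 of 12 tested were lower. Cox7a2l was also lower in alpha-like cells (-0.79, SE 0.24, adjusted p = 0.0046), in 5 of 6 samples. Cox7c, a small subunit, was higher in alpha-like cells in 6 of 6 samples, at 539 ± 71.8 CPM against 345 ± 79.1 in beta-like cells (0.48, SE 0.19, adjusted p = 0.0373), a call lost in 8 of 16 alternatives. Cox4i1, the most abundant member of the complex, was at 781 ± 124 in beta-like, 836 ± 158 in alpha-like and 581 ± 142 in PP-like cells and was called in neither comparison.

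In complex I, the core subunits Ndufs1, Ndufs3, Ndufs7, Ndufs8, Ndufv1 and Ndufv2 were called in neither comparison. Their values ran from -0.10 (Ndufs8) to 0.78 (Ndufs1) in alpha-like and from -0.77 (Ndufv1) to 0.22 (Ndufs1) in PP-like cells.

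Members of complex I called lower in PP-like cells included 8 accessory subunits and Ndufa4. Ndufa4 (-0.99, SE 0.21, adjusted p = 1.34e-05), Ndufa1 (-0.86, SE 0.19, adjusted p = 5.89e-05) and Ndufc2 (-0.83, SE 0.20, adjusted p = 0.000178) were the furthest from 0 among these. In cells thinned to 2000 UMIs the call for Ndufc2 was lost, at -0.36 (adjusted p = 0.315). Ndufb8, Ndufb6, Ndufb9, Ndufv3, Ndufs6 and Ndufa2 ranged from -0.67 to -0.57. Ndufa1 and Ndufa2 were below every beta-like sample in all 7 PP-like samples. Of these members, Ndufb9 (-0.79, SE 0.25, adjusted p = 0.00564) and Ndufv3 (-0.58, SE 0.20, adjusted p = 0.0168) were also called lower in alpha-like cells.

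Ndufa6 went the other way in alpha-like cells. It was the steadiest member in beta-like cells, at 418, 374, 400 and 421 CPM in control and 372, 372, 422 and 410 in PPTx samples. In alpha-like cells it measured 619, 457, 584 and 640 in control and 698 and 714 in PPTx samples. The groups did not overlap, and edgeR gave 0.61 (SE 0.18, adjusted p = 0.00408), a call lost in thinned cells and without the filter on low counts, where the value was 0.26 (adjusted p = 0.647). In PP-like cells it ranged from 256 to 572 and was not called (0.23, adjusted p = 0.289).

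In complex II, Sdhc was lower in PP-like (-0.75, SE 0.23, adjusted p = 0.0056) and in alpha-like cells (-0.64, SE 0.26, adjusted p = 0.044), the latter held in 6 of 15 alternatives. Sdha, Sdhb and Sdhd were called in neither comparison and lay between -0.56 and 0.41. In complex III, Uqcrq at chr11:53427922-53430831 was lower in both types. It measured 640, 462, 537 and 537 CPM in beta-like cells of control and 627, 722, 597 and 680 of PPTx samples, 124 to 399 in alpha-like cells and 127 to 406 in PP-like cells. No sample of the other types reached the lowest beta-like sample, and the log2 fold changes were -1.01 (SE 0.21, adjusted p = 1.29e-05) and -1.05 (SE 0.18, adjusted p = 7.63e-08). Cyc1, the cytochrome subunit that passes electrons to cytochrome c, was called lower in alpha-like cells (-0.94, SE 0.37, adjusted p = 0.0363) and Uqcr11 in PP-like cells (-0.56, SE 0.20, adjusted p = 0.0176). Uqcrfs1, the Rieske iron-sulphur protein, was at 252 ± 28.1, 303 ± 158 and 231 ± 68.4 in beta-like, alpha-like and PP-like cells and was called in neither comparison.

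In complex V, Atp5g1 at chr11:96072793-96075694 was lower in both types, by -1.20 (SE 0.27, adjusted p = 6.57e-05) in alpha-like and -1.04 (SE 0.21, adjusted p = 1.18e-05) in PP-like cells. It averaged 358 ± 104 CPM in beta-like, 135 ± 76.5 in alpha-like and 179 ± 101 in PP-like cells, and the ranges of PP-like and beta-like samples overlapped. Atp5g1, Atp5g2 and Atp5g3 encode the same mature subunit c of the membrane ring with different import sequences. How reads of their shared coding stretch were counted is not stated. Atp5g1 made up 31.6 ± 3.87% of their UMIs in beta-like, 18.4 ± 11.2% in alpha-like and 23.9 ± 11.5% in PP-like cells, and Atp5g3 most of the rest. Atp5g3 was called lower in alpha-like cells (-0.47, SE 0.18, adjusted p = 0.0299). Of the catalytic head, Atp5a1 was lower in alpha-like (-0.47, SE 0.18, adjusted p = 0.0317) and in PP-like cells (-0.38, SE 0.16, adjusted p = 0.0486), the latter held in 5 of 16 alternatives, while Atp5b was called in neither (0.13 and -0.10). Atp5c1, the rotating shaft, was the member higher in PP-like cells, at 394 ± 76.6 CPM against 302 ± 36.8 (0.57, SE 0.17, adjusted p = 0.00443, higher in 6 of 7 samples), a call lost with library sizes alone and without the filter on low counts, where the value was 0.23 (adjusted p = 0.659).

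Of the 21 members called in PP-like cells, 14 were lower in all 7 samples and 7 did not overlap with beta-like samples, where 61.2% of all genes called had 1 direction in every sample and 33.8% did not overlap. Of the 14 called in alpha-like cells, 7 were lower and 2 higher in all 6 samples, and 6 did not overlap, against 60.1% and 36.6% of all genes called. The members' shares were near these. The calls for 14 of the 21 and for 7 of the 14 held with each sample left out in turn, among them those for Cox6a2, Uqcrq, Atp5g1 and Cox5a in both comparisons.

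The remaining calls were lost when 1 sample or another was left out, with the fold change on the same side of 0 each time. In PP-like cells the fold change of Cox7b was -0.54 without PPTx replicate 2 (adjusted p = 0.057 in edgeR), that of Ndufb9 was -0.54 without control replicate 4 (0.0513) and that of Ndufb6 was -0.59 without control replicate 3 (0.0517) and -0.57 without PPTx replicate 4 (0.0545), all near their values with every sample. Atp5a1 was lost without any 1 of 6 samples, controls 2 to 4 and PPTx 2 to 4, at -0.32 to -0.38 (adjusted p from 0.0551 to 0.132). The values of 3 members moved more. Ndufs6 was at -0.34 without PPTx replicate 1 (0.251), -0.51 without control replicate 2 (0.0571) and -0.52 without PPTx replicate 4 (0.0563), Ndufa2 was at -0.36 without PPTx replicate 2 (0.193), and Uqcr11 was at -0.37 without PPTx replicate 2 (0.205), -0.47 without PPTx replicate 3 (0.0852) and -0.48 without control replicate 4 (0.0646).

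Thinned cells, with 2000 UMIs each, also lost calls, keeping 10 of 21 in PP-like and 6 of 14 in alpha-like cells. Cox5a, Sdhc and Ndufb6 in PP-like cells failed the filter on low counts there and were not tested. The same held for Cox5a, Sdhc and Cyc1 in alpha-like cells. In PP-like cells the values of Cox7a2l (-0.75, adjusted p = 0.0783 in edgeR), Cox6a1 (-0.49, 0.0553), Ndufb8 (-0.69, 0.107), Ndufb9 (-0.50, 0.216), Ndufs6 (-0.75, 0.0798) and Atp5a1 (-0.39, 0.141) stayed within 1.5 times those of all UMIs, while Ndufc2 (-0.36, 0.315) and Uqcr11 (-0.25, 0.523) moved further towards 0. In alpha-like cells Ndufa6 (0.48, 0.109), Ndufb9 (-0.70, 0.105), Ndufv3 (-0.49, 0.118), Atp5g3 (-0.53, 0.0502) and Cox7c (0.45, 0.212) stayed within 1.5 times.

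In alpha-like cells, without control replicate 3 the fold change was -0.55 for Cox7a2l (adjusted p = 0.17 in edgeR), -0.40 for Ndufv3 (0.244), -0.81 for Cyc1 (0.217), 0.49 for Cox7c (0.123) and -0.64 for Sdhc (0.153). Cyc1 was also lost without PPTx replicate 2 (-0.79, 0.1) or control replicate 4 (-0.92, 0.0806), Cox7c without control replicate 4 (0.41, 0.155) or PPTx replicate 3 (0.51, 0.0549) and Ndufv3 without PPTx replicate 3 (-0.46, 0.0986). Sdhc was lost without control replicate 1, control replicate 2, PPTx replicate 2 or PPTx replicate 3, at -0.44 to -0.59 (0.0779 to 0.208), and Atp5g3 without control replicate 1, 2 or 4, at -0.38 to -0.45 (0.0751 to 0.102). Atp5a1 was lost without control replicate 2 (-0.29, 0.239), PPTx replicate 2 (-0.35, 0.142) or control replicate 4 (-0.49, 0.0636).

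Several of the called genes lie over another gene in RefSeq, and whether counting used the strand is not stated. Cox6a2 overlaps Itgad by 70 bases and Uqcrq overlaps Gdf9 by 58 bases. Itgad had 0 UMIs in all 3 types and Gdf9 had 2 in beta-like cells.

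Between alpha-like and PP-like cells, no member of 70 was called in edgeR (9 had an unadjusted p under 0.05, all higher in alpha-like cells, and DESeq2 called 0), against 4.93% of all genes, 2.67% higher and 2.26% lower. Of all 2700 genes tested, 430 had such an unadjusted p, 193 higher and 237 lower. The largest evidence was for Atp5j2, a membrane subunit of the ATP synthase (0.71, SE 0.24, adjusted p = 0.054). The members' median was 0.24 against -0.03 for all genes. With library sizes alone as the scale, the median of all genes moved to 0.17, with 150 genes higher and 35 lower against 72 and 61 with TMM. Some members were then called higher, as counted in the last section. Cox6a2, with 1 and 5 UMIs, could not be told apart between these types.

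Other properties of the types went with the same comparisons. The early response and heat shock genes Fos, Jun, Egr1, Hspa1a and Hspa1b summed to 219 to 1584 CPM in beta-like, 1712 to 6064 in alpha-like and 1307 to 6329 in PP-like cells, and cytosolic ribosomal genes held 4.86%, 8.42% and 5.55% of the non-hormone UMIs. The median UMIs of a cell were 6062, 3962.5 and 5206. The list of β-cell genes summed to 1339 to 5040 CPM in PP-like cells of control and 3431 to 17973 of PPTx samples. Their part in the differences of the members was not tested.

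Genes of related mitochondrial functions were counted in the same tests. In PP-like against beta-like cells, where 18.2% of all genes were called lower and 16.3% higher, 4 of 13 tested genes of the citric acid cycle and pyruvate dehydrogenase were lower and none was higher, among them Pdha1 (-1.18), which brings pyruvate into the cycle, Fh1 (-0.83) and Idh2 (-0.65). Of the mitochondrial ribosomal proteins 4 of 18 were lower, led by Mrps12 (-1.18), Mrpl57 (-1.15) and Mrps14 (-1.04). Of 8 assembly factors Uqcc2 (-0.94), which acts on complex III, and Cox17 (-0.52), a copper chaperone for complex IV, were lower. Among 8 carriers and related proteins, Ucp2 (1.38), an uncoupling protein, and Slc25a4 (0.55), which exchanges ADP and ATP, were higher and Usmg5 (-0.87), a protein of the ATP synthase dimer, was lower. In alpha-like against beta-like cells, where these shares were 19% and 15%, 3 of 13 citric acid cycle genes were lower, among them Fh1 (-1.23) and Ogdh (-0.98), with 2 of 18 mitochondrial ribosomal proteins (Mrps12 and Mrpl17) and Uqcc2 (-0.71), and Slc25a4 (0.86) was higher. Cytosolic ribosomal genes were called higher for 66 of 78 in alpha-like and 44 of 78 in PP-like cells and lower for none.

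After PPTx, no member of the beta-like cells passed the test in edgeR, and Atp5g1 passed it in DESeq2. The sum over all members, given above by sample, was higher in PPTx than in control by a log2 of 0.10, or 1.07-fold, with the SD over samples at 0.036 in PPTx and 0.055 in control. It stayed between 0.08 and 0.12 with any sample left out. On this scale the groups overlapped, because PPTx 4 (23993) was below control 3 (24224), while with Pyy, Iapp and Ttr left out, a setting chosen after seeing the data, the difference was 0.11 and the groups did not overlap. By complex the difference was 0.09 for I, 0.06 for II, 0.15 for III, 0.02 for IV and 0.16 for V, with overlapping groups in each. With any sample left out these ran from 0.06 to 0.12 for I, 0.01 to 0.10 for II, 0.12 to 0.19 for III, -0.02 to 0.06 for IV and 0.13 to 0.20 for V. Without the peptides complex V differed by 0.17 with no overlap and the other complexes overlapped. In CPM of all UMIs the sum differed by 0.22 with overlapping groups, and complex I by 0.22 with no overlap. Transcripts of other cell types moved in the same beta-like sums. The PP-cell list summed to 2812 to 6683 CPM in PPTx samples against 1031 to 2476 in control, and the alpha-cell list to 4274 to 5430 against 3540 to 4221, both without overlap. The highest PPTx and control samples stood at 239 and 83.1 for the immune list, 289 and 36.9 for the acinar list, 240 and 55.2 for the stellate list, 321 and 145 for the ductal list and 18.9 and 24.6 for the endothelial list, with overlapping groups. Their part in the member sums was not tested.

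In the test of single members in beta-like cells, 0 of 74 were called in edgeR, against 0.311% of 5781 genes, 0.19% higher and 0.121% lower. DESeq2 called 1 member and 26 of all genes. In edgeR 12 members had an unadjusted p under 0.05, of which 11 were higher. Of the 5781 genes 559 had such a p, 305 higher and 254 lower. Of the 74 members, 58 had a value above 0, and their median was 0.11 against -0.0099 for all genes. Other lists showed like medians, 0.26 for 60 mitochondrial ribosomal proteins, 0.21 for 16 citric acid cycle genes, 0.22 for 10 carriers and 0.14 for 80 cytosolic ribosomal genes, with -0.03 for 21 assembly factors. No gene of these lists was called in edgeR, and DESeq2 called 1, a mitochondrial ribosomal protein.

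**Figure D4:**
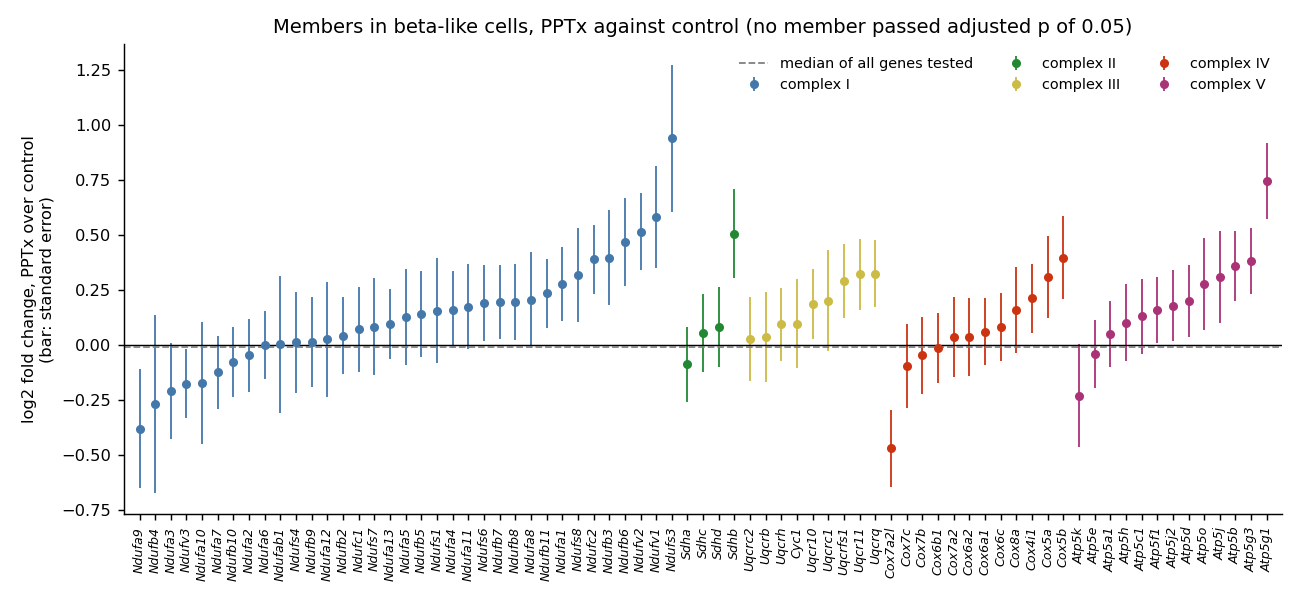
Log2 fold change of PPTx over control in beta-like cells with its standard error (edgeR, 4 samples a group) for 73 of the 74 members tested, ordered within their complexes I to V; the dashed line is the median of all genes tested. All 9 members of complex III lie above 0 in this fit and Atp5g1 is highest in complex V at 0.75, and no member passed an adjusted p of 0.05.

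Atp5g1 came nearest to a call. In beta-like cells it measured 308, 209, 279 and 293 CPM in control samples 1 to 4 and 447, 505, 362 and 461 in PPTx samples 1 to 4. Every PPTx sample was above every control sample. The log2 fold change was 0.75 (SE 0.17) with an adjusted p of 0.0649 in edgeR and 0.0202 in DESeq2. In edgeR the adjusted p was 0.0154 without the filter on low counts and 0.444 in thinned cells (0.53), and it ranged from 0.0458 without PPTx replicate 3 to 0.295 without control replicate 2. Of the other subunit c genes, Atp5g3 had 0.38 (adjusted p = 0.406) and Atp5g2 was not tested.

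Ndufv2 measured 221, 187, 221 and 247 CPM in control and 271, 290, 350 and 326 in PPTx samples, also without overlap, at 0.52 (SE 0.18, adjusted p = 0.277). Cox7a2l was the member without overlap in the other direction, with 431, 357, 434 and 381 in control and 249, 227, 347 and 312 in PPTx samples, at -0.47 (SE 0.17, adjusted p = 0.368). Ndufc2, Uqcr11 and Uqcrfs1 were higher without overlap as well, so that 5 of 74 members were higher and 1 lower in every PPTx sample, where 2.54% of all genes tested were higher and 3.34% lower without overlap. The largest value in complex I belonged to Ndufs3 (0.94, SE 0.33, adjusted p = 0.311), whose groups overlapped. All 9 members of complex III had edgeR values above 0, from 0.03 to 0.32, although the mean level of Uqcrb was lower in PPTx samples (238 ± 72.6 CPM against 250.3 ± 35.3). Cox6a2 was at 449 ± 122 in control and 429 ± 56.1 in PPTx samples (0.04, 95% interval -0.31 to 0.39, adjusted p = 0.971). The mean was lower in PPTx samples while the edgeR estimate, scaled by TMM, was above 0, and the interval holds both directions.

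In PP-like cells, PPTx and control were compared over 3 control and 4 PPTx samples with 37 members tested. None was called in edgeR (2 had an unadjusted p under 0.05, DESeq2 called 0), against 0.154% of 651 genes, and the members' median was 0.04 against 0.02. Of the 651 genes 41 had such an unadjusted p, 24 higher and 17 lower. The member sum differed by a log2 of 0.10, with SDs of 0.11 in PPTx and 0.10 in control, and by 0.06 to 0.15 with 1 sample left out. Atp5f1 (0.80, adjusted p = 0.686) and Atp5h (0.68, adjusted p = 0.686), both of the stalk of the ATP synthase, had the smallest p-values, and Atp5h was at 425 ± 115 in PPTx against 273 ± 19.3 in control without overlap. The difference between the effects of PPTx in beta-like and PP-like cells was called for 0 of 73 members (2 with an unadjusted p under 0.05, DESeq2 0), against 0.0204% of 4908 genes. Of the 4908 genes 276 had such an unadjusted p, 92 higher and 184 lower. Alpha-like cells had sums in only 2 PPTx samples, where the member sum differed from control by 0.03 with overlapping groups. With 1 sample left out this difference ran from -0.06 to 0.07. By complex the difference was 0.09 for I, -0.54 for II, -0.10 for IV and 0.26 for V, with overlap, and -0.45 for III without overlap. With 1 sample left out these ran from 0.004 to 0.18 for I, -1.06 to -0.03 for II, -0.54 to -0.35 for III, -0.20 to -0.01 for IV and 0.15 to 0.35 for V. With the peptides left out III overlapped (-0.38), while I (0.17) and V (0.34) did not. In CPM of all UMIs III (-0.41) and V (0.30) did not overlap. In the same alpha-like sums the PP-cell list was at 53563 to 122685 CPM in PPTx against 21844 to 29178 in control samples and the alpha-cell list at 54511 to 59999 against 75115 to 82567, both without overlap, and their part was not tested.

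Beta-like cells with at least 2 UMIs of 10 replication genes (Mki67, Top2a, Tpx2, Ccna2, Cdk1, Birc5, Nusap1, Cdca8, Cenpa and Ube2c) numbered 41, 10 in control and 31 in PPTx. Samples with at least 2 of them entered the comparison with the other beta-like cells of the same sample. This left out controls 1 and 2, with 1 such cell each, and the sums of the 6 samples used held 4 and 4 cells in controls 3 and 4 and 5, 15, 8 and 3 in PPTx samples 1 to 4. The member sum differed by a mean log2 of -0.005 (SD 0.16, higher in 3 of 6 samples), and in CPM of all UMIs by 0.13 (SD 0.12, higher in 5 of 6 samples). None of 75 members was called in edgeR (11 had an unadjusted p under 0.05, all lower, and DESeq2 called 0), against 6.27% of 4835 genes, 3.14% higher and 3.12% lower. Of these genes 940 had such an unadjusted p, 321 higher and 619 lower. The median of the members was -0.32 and that of all genes -0.23, and with library sizes alone these were 0.02 and 0.09, with the members below the median gene on both scales. With cells thinned to 2000 UMIs, the replicating cells were chosen anew from the thinned counts, so some of the 41 could fall among the other cells. In that setting 24 members were called lower and 0 higher, and the medians were -1.43 for the members and -0.82 for all genes. Of the 2298 genes tested there, 369 were lower and 13 higher. Without the filter on low counts 4 members were called lower, where 344 of 13952 genes were lower and 167 higher. With at least 3 replication UMIs 3 members were called lower, where 173 of 4591 genes were lower and 141 higher. Ndufa4 (-0.86, SE 0.31, adjusted p = 0.0681), Cox6a2 (-0.85, SE 0.31, adjusted p = 0.0687) and Ndufa1 (-0.80, SE 0.29, adjusted p = 0.071) had the smallest p-values.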

How the data were processed

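Per the labels and the paper's methods, islet cells were captured in droplets of the ddSEQ system (the labels name a Chromium kit, the methods a SureCell kit), reads were split with bcl2fastq and aligned to mm10, cells were filtered and UMIs counted in Cell Ranger, and the authors deposited whole-number UMI counts per gene and cell without normalization, 1 table per sample; the thresholds of that filtering are not given in the sources used here. Kept cells had 100 to 3000 genes and 100 to 20000 UMIs, and none had under 2005 UMIs. No doublet caller was run, and 24 cells of mixed hormone content were left out of the comparisons; 28 cells lay near the ratio of 2 that separates named from mixed cells.

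Counts were summed per sample and type without Ins1, Ins2, Gcg, Sst, Ppy and Ghrl. Tests used edgeR 4.0.16 in R 4.3.3 (filterByExpr, TMM, quasi-likelihood, two-sided, adjusted over all genes tested, threshold 0.05) and DESeq2 1.42.0 as an alternative, and were tested on simulated data. Complex sums got no test. The text names the member with most UMIs in each complex, up to 10 called members each way by fold change, isoform families and catalytic subunits; other members were named after their values were seen. Some single genes are not reported or drawn here, and counts, medians and sums include them. The members and lists were chosen with earlier results of these data known. Alternatives were hormone transcripts kept, library sizes alone, no filter, cells thinned to 2000 UMIs, other hormone ratios, the replicate number as a block, and each sample left out. Mitochondrial-encoded genes were not analysed here.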

Additional observations from a re-analysis of the deposited data

Results flagged for a closer look

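Of 228 groups of 4 samples examined for a sample apart from the rest of its group, 10 held one (4.39%), where chance gives about 1 in 20. In beta-like cells of control samples, Cox4i1 was high in replicate 4 (846 CPM against 676 to 705) and Uqcr11 was low in replicate 2 (264 against 337 to 345). In beta-like cells of PPTx samples, Atp5e was high in replicate 3 (1219 against 794 to 858), Cox5a was high in replicate 1 (268 against 205 to 209) and Ndufs6 was low in replicate 2 (243 against 321 to 323). In alpha-like cells of control samples the counts were small: Atp5c1 was low in replicate 4 (169 against 355 to 384), Ndufa4 was high in replicate 4 (301 against 247 to 254), Ndufc2 was high in replicate 2 (507 against 207 to 247) and Cox6a2 was at 8.00 in replicate 3, from 1 UMI, against 0. In PP-like cells of PPTx samples Atp5f1 was low in replicate 3 (273 against 490 to 533).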

How the results depend on the processing

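Of the counts, medians and member sums recomputed under the alternatives, 338 values stayed within their limits and 46 moved. For PPTx in beta-like cells, members called higher were 1 with DESeq2, 2 without the filter on low counts, 1 with the replicate block and 0 to 1 with a sample left out, and the median was 0.061 in thinned cells. The labels do not say that a replicate number marks a shared origin, and deviations of same-numbered samples correlated at 0.147, 0.0772, 0.157 and 0.30 over 1704 genes, above 0.1 in 3 of 4 pairs, with 6 of 8 samples correlating best with their own number, which is a hint from the data and not the design. With the number as a block, 43 of all genes were called in place of 18, among them Atp5g1 (0.74, adjusted p = 0.0331). In PP-like cells the median moved to 0.24 without the filter, 0.27 thinned and 0.054 to 0.18 with a sample left out, and the replicate block called 0. For the difference between these effects it was -0.16 thinned and -0.14 to 0.10 with a sample left out.

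For alpha-like against beta-like cells, members called higher were 1 with hormones kept, 1 with DESeq2, 0 without the filter, 1 with no minimum ratio and as few as 1 with a sample left out, those called lower were 7 in thinned cells, and the median was -0.40 without the filter. For PP-like against beta-like cells, library sizes alone gave 0 higher and 35 lower with a median of -0.51, no filter gave 0 and 33 with a median of -0.69, and thinned cells gave 12 lower. For alpha-like against PP-like cells, members called higher were 6 with library sizes alone (median 0.43), 1 thinned, 1 with the stricter ratio and up to 1 with a sample left out. For replicating cells the median was -0.081 with DESeq2, 0.019 with library sizes alone, -0.62 without the filter and -1.43 thinned. The members called lower there were 4 without the filter, 24 thinned, 3 with at least 3 replication UMIs, and Cox7a2 turned to -2.05 thinned. Thinning also chose the replicating cells anew. In CPM of all UMIs the member sums differed by 0.22 for PPTx in beta-like cells, 0.27 for alpha-like and -0.26 for PP-like against beta-like cells and 0.52 for alpha-like against PP-like cells, and with Pyy, Iapp and Ttr left out by -0.32 and 0.14 for the latter comparisons. Where a setting tests other genes or samples, or scales by another total, that is its construction; otherwise the cause was not tested. Few alpha-like and PP-like cells limit the depth of every comparison that holds them.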
